A study of Mus musculus with 2 samples.

Results

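The genes described here carry the symbols of mitochondrial ribosomal proteins, Mrpl for the large subunit and Mrps for the small subunit, with exceptions in place given below. They were chosen by symbol alone, as rows of the deposited gene tables whose identifier maps in GENCODE release M21 to Mrpl or Mrps followed by a number and at most one of the letters a, b or c. This gave 77 genes, 48 Mrpl and 29 Mrps, of 43346 gene rows. The annotation holds 78 such symbols, and the other one, Mrpl33, was not analysed here. The study has one group, mouse forebrain of the strain B6NCrl at embryonic day 11.5, with no treatment named, in 2 replicate libraries. The forebrains of 109 embryos were pooled for replicate 1 and those of 88 for replicate 2, males and females together, with a biosample label each and one donor label for both. Total RNA longer than 200 nucleotides was used at an input equal to 1 cell, spike-in RNAs were added, and a SmartSeq protocol copied and amplified complementary DNA. Although labelled as single cell RNA-seq, each library is a bulk sample of pooled tissue, so cell types are mixed in it.

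Mitochondria keep their own ribosomes, which translate the few messenger RNAs made from mitochondrial DNA into membrane subunits of the respiratory chain and ATP synthase. The ribosomal RNAs are encoded in mitochondrial DNA, while every ribosomal protein is encoded in the nucleus, made in the cytosol and imported. Some of these proteins descend from bacterial ribosomal proteins, and others have no bacterial counterpart and were gained in mitochondria. At this age the forebrain consists largely of dividing progenitors with some newborn neurons.

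The libraries held 28639678 and 28948074 expected counts, which are estimated reads per gene and need not be whole. Of these, 27395002 and 27977544 fell on gene rows. With one group of 2 libraries no groups can be compared and no p-value is given, and differences between the libraries have no replicate check. All 6 forebrain markers examined (Emx2, Lhx2, Otx2, Pax6, Sox2 and Nr2e1) were detected, here a TPM (transcripts per 1000000) of 1 or more, in each library, and all 6 midbrain and hindbrain markers (En1, En2, Gbx2, Hoxb2, Hoxb4 and Hoxb6) had 0 counts in both. All 6 forebrain markers were lower in replicate 2, and they summed to 329 TPM in replicate 1 and 167 in replicate 2. The erythroid markers Hbb-y, Hba-x, Hbb-bh1 and Alas2 were also detected in both libraries, and all 4 were higher in replicate 2. They summed to 19755 TPM in replicate 1 and 24172 in replicate 2. The part of either marker list in the values that follow was not tested. In bulk tissue, fewer cells of a type and less RNA per cell cannot be told apart.

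Nearly all mitochondrial ribosomal protein genes were detected. Of the 77 genes, 74 were detected in both libraries (96.1%), against 30.4% of all protein-coding genes and 16.6% of all genes. The exceptions were Mrps27 and Mrpl9, which passed in replicate 1 alone, and Mrps30, which passed in replicate 2 alone. Their levels were moderate to high, with 42 of the 77 at a mean TPM of at least 100, 17 from 50 to 100 and 18 below 50. The 48 Mrpl genes summed to 6492 TPM in replicate 1 and 6464 in replicate 2, which is 6478 ± 19.3 (SD, n = 2). The 29 Mrps genes summed to 3508 and 3130 TPM, which is 3319 ± 268 (SD, n = 2). The median level was 105 TPM for Mrpl and 110 TPM for Mrps genes, a difference that was not tested. All 77 genes together took 0.653% of the gene counts in replicate 1 (95% Clopper-Pearson interval 0.650 to 0.656) and 0.609% in replicate 2 (0.606 to 0.612). These intervals cover counting error only, since amplified reads with no molecular identifier can come from one molecule.

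**Figure D1:**
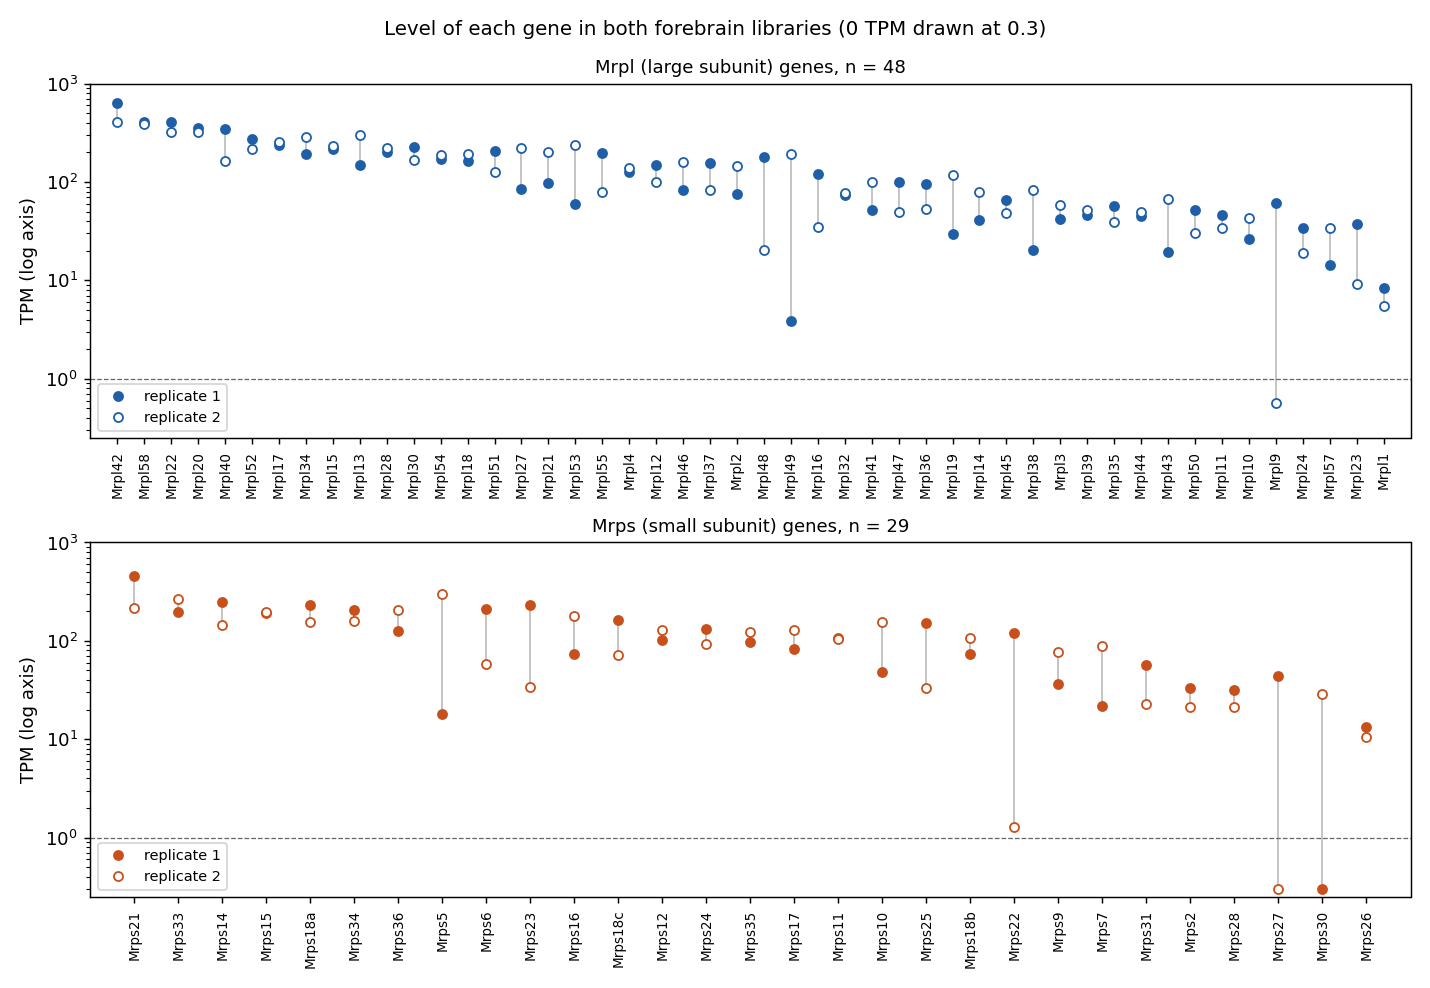
TPM of each Mrpl gene (top) and Mrps gene (bottom) in replicate 1 (filled) and replicate 2 (open) on a log axis, sorted by mean, with a grey line joining both values and a dashed line at a TPM of 1. Most genes lie between 20 and 400 TPM, and Mrpl9, Mrps22, Mrps27 and Mrps30 fall to 1.27 TPM or less in one library.

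Among large-subunit genes, Mrpl42, which encodes a protein with no bacterial counterpart, was the highest at 630 TPM in replicate 1 and 403 in replicate 2. It lies on chromosome 10 from 95480805 to 95501940 (mm10, minus strand) and ranked above 98.8% of protein-coding genes by mean TPM. Next was Mrpl58, at 406 and 392 TPM, whose product is a peptidyl-tRNA hydrolase that frees stalled mitochondrial ribosomes and is itself part of the large subunit. Its mean was 399 ± 10.2 TPM (SD, n = 2), the closest agreement among the 6 highest Mrpl genes. Mrpl22, a counterpart of the bacterial protein that lines the exit tunnel, stood at 409 and 324 TPM. Mrpl20, whose bacterial counterpart binds ribosomal RNA early in assembly, stood at 357 and 323. Mrpl40, at 346 and 164 TPM, was the only gene of these 6 that was at least 2-fold apart. Mrpl52, at 276 and 215 TPM, completed the 6. At the other end, Mrpl1, the counterpart of the bacterial L1 stalk protein, was the lowest of all 77 genes at 8.47 and 5.56 TPM. Mrpl23 was at 37.3 and 9.09 TPM and Mrpl57 at 14.4 and 34.0.

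Among Mrps genes, Mrps21, a counterpart of a bacterial protein, was the highest, at 451 TPM in replicate 1 and 214 in replicate 2. Mrps33 was at 198 and 264 TPM and Mrps14 at 248 and 146. Mrps15 agreed closely, at 194 and 199 TPM, which is 196 ± 3.35 (SD, n = 2). Mrps18a was at 233 and 154 TPM and Mrps34 at 207 and 158. The lowest 3 were Mrps26, at 13.5 and 10.6 TPM, Mrps30 at 0 and 29.0, and Mrps27 at 43.8 and 0.

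The stalk of the large subunit recruits translation factors. Its gene Mrpl12, the counterpart of bacterial L7/L12, was at 150 and 99.4 TPM, while Mrpl10, which anchors it, was at 26.1 and 43.1, and Mrpl11, at the stalk base, at 45.7 and 33.9. Mrpl12 was the highest of these 3 in both libraries. Mrps12, whose product lies at the decoding centre, was at 102 and 130 TPM. Mrps36, named as a ribosomal gene but since assigned to the oxoglutarate dehydrogenase complex, was at 127 and 204 TPM.

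The symbols Mrps18a, Mrps18b and Mrps18c name 3 paralogs of one bacterial protein that occupy different places, with the Mrps18a product found in the large subunit. Mrps18a (chromosome 17, 46110986 to 46128910) was the highest of them in both libraries, at 233 and 154 TPM. Mrps18b (chromosome 17, 35910379 to 35916389) was at 73.1 and 106 TPM, and Mrps18c (chromosome 5, 100798627 to 100804471) at 161 and 72.3. The order of Mrps18b and Mrps18c was therefore opposite in the 2 libraries. In the classes used next, Mrps18c is counted with the proteins that have a bacterial counterpart and Mrps18a and Mrps18b with the others. Mrps30 also encodes a large-subunit protein despite its symbol. Counting Mrps30 and Mrps18a with the large subunit left the medians at 105 and 110 TPM.

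By ancestry, the order of the levels over all members was the same in both libraries, while within each subunit it depended on the library. The 45 genes with a bacterial counterpart had a median level of 112 TPM, with 97.97 in replicate 1 and 103 in replicate 2. That of the 32 mitochondria-specific genes was 98.9, with 89.8 and 91.7, a difference that was not tested. Within the large subunit by position, the 29 genes with a counterpart had a median of 97.97 TPM in replicate 1 and 99.4 in replicate 2. The 21 without had 65.2 and 99.7, so these classes were almost level in replicate 2. Within the small subunit, the 16 genes with a counterpart had a median of 92.5 TPM in replicate 1 and 116 in replicate 2. The 11 small-subunit genes without one, counted here with Mrps36 among them, had 121 and 33.9 TPM. This made them the higher class in replicate 1 and the lower in replicate 2. They summed to 1322 TPM in replicate 1 and 957 in replicate 2. On the log2(TPM + 1) scale, 5 of the 11 (Mrps22, Mrps23, Mrps25, Mrps27 and Mrps31) were at least 2-fold higher in replicate 1 and none in replicate 2. Of protein-coding genes averaging 10 TPM or more, 24.5% and 26.8% were, and 51.2% were apart in either direction, against 45.5% of these 11 genes.

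The transcripts of these genes were short, with a median length of 935 bases against 2058 for protein-coding genes at 10 TPM or more on average. Across the 77 genes, log2 mean TPM fell with log2 length, at a Pearson r of -0.65 and a Spearman rho of -0.66. It also fell across the 7148 protein-coding genes at 10 TPM or more on average, at -0.44 and -0.40. On counts per 1000000 gene counts (CPM), which are not divided by length, r across the 77 genes was -0.10 and rho -0.11. These correlations are across genes of the same libraries, and TPM holds length in its denominator, so they are given as a description.

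Promoters of the most abundant members, read from RefSeq on GRCm38.p6 (the same assembly as mm10), are given as examples and do not stand for the group. Each window runs from 250 bases before to 50 bases after the annotated start, 5′ to 3′ on the gene's strand. Capitals mark matches to the 3 motifs searched for nuclear activators known at genes of mitochondrial proteins: NRF1 as GCGC, any base and TGCGC, ETS factors such as GABP as CCGGAAG, and YY1 as AAGATGG, on either strand. The following are Mrpl42 (chr10:95501900-95502199, minus strand), Mrpl58 (chr11:115403502-115403801, plus strand), Mrps21 (chr3:95871465-95871764, minus strand) and Mrps33 (chr6:39810887-39811186, minus strand), the 2 highest genes of each subunit.
Mrpl42: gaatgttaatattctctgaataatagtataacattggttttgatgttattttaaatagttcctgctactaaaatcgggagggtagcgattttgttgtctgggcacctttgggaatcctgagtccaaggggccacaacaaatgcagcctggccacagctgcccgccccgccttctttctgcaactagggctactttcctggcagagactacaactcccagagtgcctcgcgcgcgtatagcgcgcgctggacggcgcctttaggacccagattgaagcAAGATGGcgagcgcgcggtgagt
Mrpl58: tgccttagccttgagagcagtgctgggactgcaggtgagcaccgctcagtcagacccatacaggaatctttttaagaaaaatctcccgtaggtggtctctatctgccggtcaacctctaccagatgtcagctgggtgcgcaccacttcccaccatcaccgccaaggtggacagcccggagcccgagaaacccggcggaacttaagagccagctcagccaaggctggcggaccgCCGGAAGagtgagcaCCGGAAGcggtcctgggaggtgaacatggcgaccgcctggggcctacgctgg
Mrps21: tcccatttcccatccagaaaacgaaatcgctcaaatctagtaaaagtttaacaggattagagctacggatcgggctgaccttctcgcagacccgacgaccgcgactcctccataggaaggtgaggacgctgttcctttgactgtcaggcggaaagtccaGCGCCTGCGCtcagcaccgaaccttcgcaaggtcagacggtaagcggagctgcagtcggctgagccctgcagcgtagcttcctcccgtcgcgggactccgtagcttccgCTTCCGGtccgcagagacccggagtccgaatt
Mrps33: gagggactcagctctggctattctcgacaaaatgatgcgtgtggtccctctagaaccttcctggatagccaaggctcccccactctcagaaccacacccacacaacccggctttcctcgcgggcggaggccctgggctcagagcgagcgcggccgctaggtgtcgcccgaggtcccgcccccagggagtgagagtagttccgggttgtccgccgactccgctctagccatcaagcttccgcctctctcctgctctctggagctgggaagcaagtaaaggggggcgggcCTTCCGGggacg
Mrpl42 holds 1 YY1 match, Mrpl58 holds 2 ETS matches, Mrps21 holds 1 NRF1 and 1 ETS match, and Mrps33 holds 1 ETS match. The windows of Mrpl20, Mrpl40 and Mrps14, also among the 6 highest of their subunit, hold none of the 3 motifs. The promoter with the most NRF1 matches among the members, 3 in all, is that of Mrpl45 (chr11:97315466-97315765, plus strand), a gene at 65.2 and 47.9 TPM.
Mrpl45: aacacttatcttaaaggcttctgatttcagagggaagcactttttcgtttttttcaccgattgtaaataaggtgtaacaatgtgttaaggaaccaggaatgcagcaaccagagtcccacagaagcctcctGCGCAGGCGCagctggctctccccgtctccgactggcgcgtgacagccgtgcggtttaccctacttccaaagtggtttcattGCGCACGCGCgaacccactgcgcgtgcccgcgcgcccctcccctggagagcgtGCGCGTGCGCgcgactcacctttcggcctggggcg
A match is a run of letters and not a binding site, and these promoters were not tested for binding.

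Promoters were found for 68 of the 77 genes, with 74 windows in all, and 42 of the 74 windows (56.8%) held at least 1 of the 3 motifs. The share was 18% of all 32851 promoters and 35.1% of the 7400 promoters of protein-coding genes at 10 TPM or more on average. The ETS motif was in 33.8% of the windows, against 8.86% of all promoters and 20.5% of those of the expressed genes. NRF1 was in 17.6%, against 4.60% and 11.7%, and YY1 was also in 17.6%, against 6.34% and 7.97%. The CCAAT box was in 39.2%, against 37.4% of all promoters and 39.3% of those of the expressed genes. TATAAA was in 6.76%, against 13.6% of all promoters and 7.04% of those of the expressed genes. These shares were not tested. Member windows had a median G and C content of 58.8% and a median of 21.5 CG pairs, and those of expressed genes had 61.0% and 21.0.

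**Figure D2:**
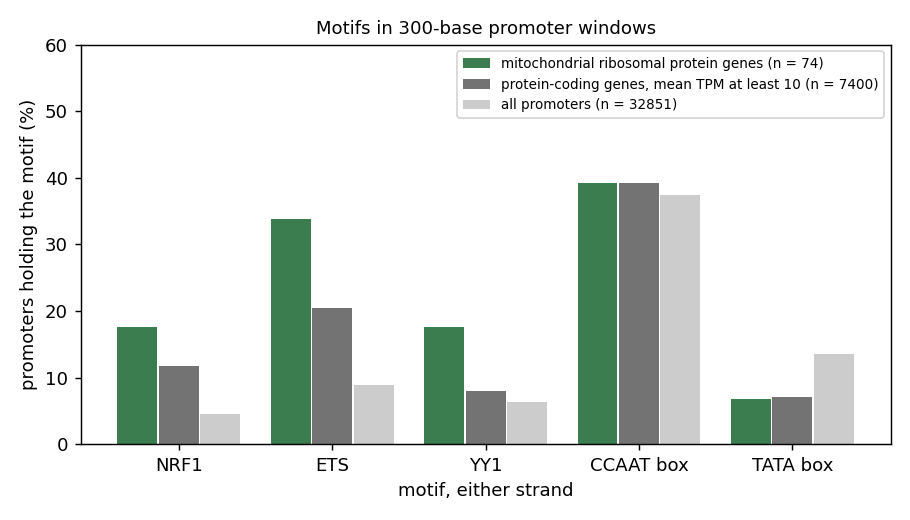
Percent of promoter windows (y axis) that hold each of 5 motifs on either strand (x axis), for the 74 windows of these genes, for those of expressed protein-coding genes and for all promoters. ETS, NRF1 and YY1 stand highest in the mitochondrial ribosomal protein genes, and the CCAAT box is at 39.2%, 39.3% and 37.4%.

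Many of these genes lie head to head with another gene. In 18 of 77 (23.4%), another protein-coding gene starts on the other strand within 1000 bases upstream, against 6.82% of all protein-coding genes and 12.3% of those with a mean TPM of at least 10. The gap had a median of 81 bases. Of the 18 partners, 10 were detected in both libraries, 6 in one and 2 in neither. Of 21474 protein-coding genes, 30.4% were detected in both, 1352 in replicate 1 alone, 2103 in replicate 2 alone and 11488 in neither. Mrpl32 shares its start region with the proteasome gene Psma2, at 572 and 435 TPM against 74.0 and 78.0 for Mrpl32. Mrpl51 faces the condensin gene Ncapd2, at 157 and 123 TPM, and itself stood at 207 and 125. Mrps12 faces Sars2, which encodes the mitochondrial seryl-tRNA synthetase, at 28.2 and 26.8 TPM. In Mrps27, the partner Ptcd2 was at 98.0 and 41.2 TPM while Mrps27 itself had 0 counts in replicate 2.

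One pair of members, Mrpl46 and Mrps11 on chromosome 7, overlap at their 5′ ends in release M21 and were therefore not in that count. Their promoter windows (chr7:78783040-78783339, minus strand, and chr7:78782881-78783180, plus strand) share 141 bases read on opposite strands. They are shown because the annotated starts of a large and a small subunit gene lie close together there. Use of the region by either gene was not tested.
Mrpl46: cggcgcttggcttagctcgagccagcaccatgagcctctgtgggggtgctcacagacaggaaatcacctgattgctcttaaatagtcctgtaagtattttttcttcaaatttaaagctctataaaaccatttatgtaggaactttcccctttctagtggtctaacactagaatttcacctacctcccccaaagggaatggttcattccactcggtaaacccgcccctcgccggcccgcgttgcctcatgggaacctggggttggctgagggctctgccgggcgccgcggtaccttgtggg
Mrps11: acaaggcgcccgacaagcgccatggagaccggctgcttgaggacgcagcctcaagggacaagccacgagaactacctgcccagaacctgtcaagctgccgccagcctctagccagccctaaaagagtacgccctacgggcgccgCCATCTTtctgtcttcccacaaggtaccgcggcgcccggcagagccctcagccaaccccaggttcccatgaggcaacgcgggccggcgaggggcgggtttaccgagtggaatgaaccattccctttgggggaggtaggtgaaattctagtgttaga
The window of Mrps11 holds 1 YY1 match and that of Mrpl46 none of the 3 motifs. Mrps11 was at 107 and 103 TPM and Mrpl46 at 83.3 and 161, so the level of Mrps11 hardly differed between libraries while that of Mrpl46 was almost 2-fold higher in replicate 2.

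The replicate libraries differed widely for many of these genes, in both directions. Of 76 genes averaging 10 TPM or more, 29 (38.2%) were at least 2-fold apart on the log2(TPM + 1) scale, against 51.2% of the 7148 protein-coding genes at that level. Of the 29, 15 were higher in replicate 2 and 14 in replicate 1, where 26.8% and 24.5% of those protein-coding genes were. The median difference, replicate 2 minus replicate 1, was -0.01 and the median absolute difference 0.76. At the other extreme, 13 of the 76 differed by less than 1.2-fold, such as Mrpl58, Mrps15 and Mrps11, against 15.8% of protein-coding genes. By subunit, 15 of 47 Mrpl genes (31.9%) and 14 of 29 Mrps genes (48.3%) were 2-fold apart, a difference that was not tested. The log2(TPM + 1) of the libraries correlated across the 77 genes with a Pearson r of 0.43 and a Spearman rho of 0.55. Across 9735 protein-coding genes averaging 1 TPM or more, r was 0.48 and rho 0.54. Across the 7643 within the range of the members' mean TPM, r was 0.27 and rho 0.47. For Mrpl genes r was 0.53 and rho 0.65, and for Mrps genes 0.30 and 0.38.

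**Figure D3:**
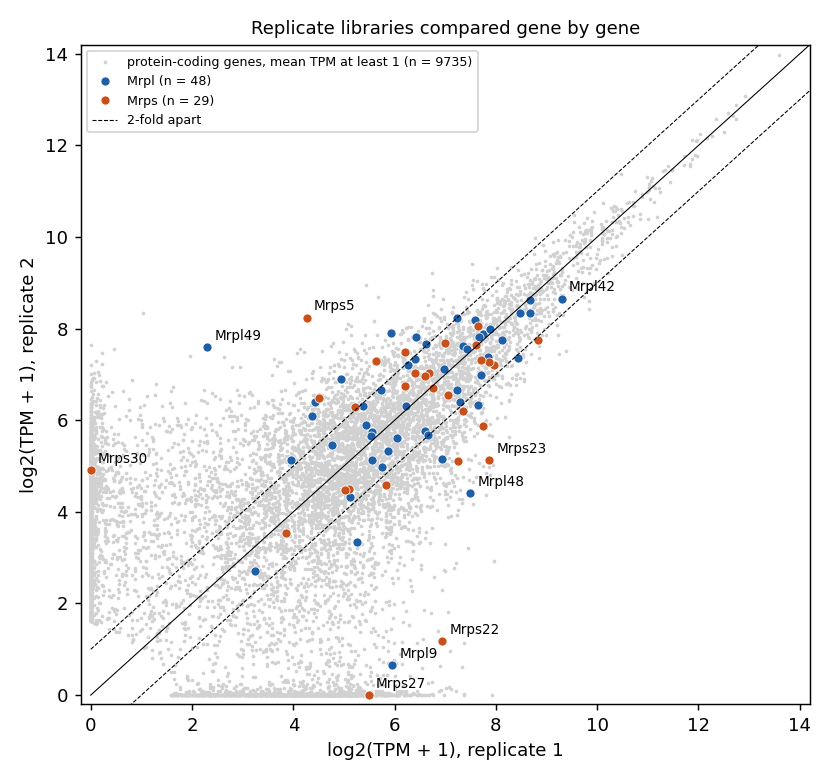
log2(TPM + 1) in replicate 1 (x axis) against replicate 2 (y axis) for the 48 Mrpl and 29 Mrps genes over 9735 protein-coding genes averaging 1 TPM or more (grey), with the diagonal and dashed lines at 2-fold. Mrps27, Mrps22 and Mrpl9 lie far below the diagonal and Mrps30, Mrpl49 and Mrps5 far above it.

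Abundant genes were 2-fold apart less often, so members were also set against protein-coding genes of the same level. From 100 to 1000 TPM, 13 of 42 members (31.0%) were 2-fold apart, against 21.9% of protein-coding genes. From 50 to 100 TPM the share was 9 of 17 (52.9%) against 42.8%, and from 20 to 50 TPM it was 6 of 15 (40.0%) against 56%. Only 2 members lay from 10 to 20 TPM, where 76.1% of protein-coding genes were 2-fold apart, and Mrps30 was apart while Mrps26 was not. Within a level the members thus lay on either side of the background, and no range was tested.

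**Figure D4:**
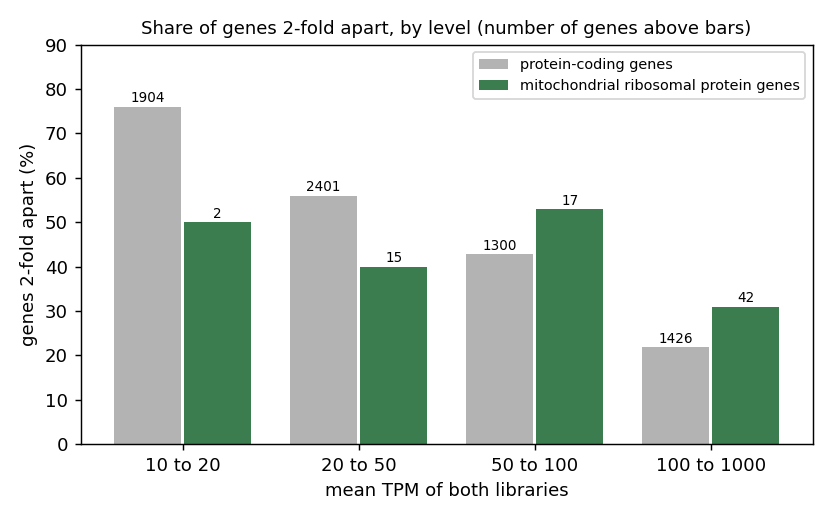
Percent of genes at least 2-fold apart between the libraries (y axis) by mean TPM (x axis), for protein-coding genes (grey) and mitochondrial ribosomal protein genes (green), with the number of genes above each bar. The green bar is above the grey one from 50 TPM upwards and below it under 50 TPM, and the lowest range holds 2 members.

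A few genes were read almost entirely in one library. Of the 77 genes, 3 had under 1% of their depth-scaled counts in one library, against 28.2% of protein-coding genes and 29.8% of all genes averaging 1 TPM or more. From 10 TPM upwards these were 3 of 76 genes, against 17.2% of protein-coding and 18.1% of all genes. By level, 1 of 2 members lay from 10 to 20 TPM, where the share of protein-coding genes was 42.2%, and 2 of 15 from 20 to 50 TPM, where it was 15.7%. There were none among 17 members from 50 to 100 TPM (3.46% of protein-coding genes) or among 42 from 100 to 1000 TPM (0.14%). Mrps27 (chromosome 13, 99344786 to 99415562), which encodes a small-subunit protein with pentatricopeptide repeats, had 1714 counts in replicate 1 and 0 in replicate 2. In CPM it was at least 583-fold higher in replicate 1, taking a count of 0 to allow up to 3 counts, or 0.107 CPM, in the library. Mrps30 (chromosome 13, 118378381 to 118387252) had 0 counts in replicate 1 and 959 in replicate 2, at least 313-fold higher. Mrpl9 (chromosome 3, 94443318 to 94451130) had 2050 and 19 counts, so its CPM was 110-fold higher in replicate 1 (counting interval 70.4 to 183). Just outside that limit, Mrps22 (chromosome 9, 98588730 to 98601660) had 2982 and 31 counts, and its CPM was 98.2-fold higher in replicate 1 (69.1 to 145). A count of 0 describes the library and does not show that the tissue lacked the transcript.

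Mrpl49 showed the widest gap in the opposite direction among genes read in both, at 3.91 TPM in replicate 1 and 192 in replicate 2. It is mitochondria-specific, lies on chromosome 19 from 6053622 to 6057785, and had 142 and 6920 counts. Its head-to-head partner Fau, a ribosomal protein gene of the cytosol, did not follow it, at 625 and 427 TPM. Mrps5, the counterpart of a bacterial small-subunit protein, was at 18.2 and 301 TPM. Mrps7 was at 21.7 and 88.1 TPM and Mrpl38 at 20.4 and 83.7. Higher in replicate 1 were Mrpl48, at 179 and 20.3 TPM, and Mrps23, at 233 and 33.9. In all, 9 of the 76 genes were at least 4-fold apart on the log2(TPM + 1) scale, against 30.4% of protein-coding genes averaging 10 TPM or more. On CPM, 28 of the 76 genes were 2-fold apart, against 51.4% of protein-coding genes, and 27 of the 28 were also apart on TPM. Mrpl13 and Mrpl21 were apart on TPM alone and Mrpl47 on CPM alone (their log2 differences were 1.00, 1.04 and -0.99 on TPM and 0.61, 0.88 and -1.02 on CPM). For Mrpl13 the deposited transcript length was 1159 bases in replicate 1 and 932 in replicate 2.

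The deposited transcript tables divide each gene among its annotated transcripts. Of the 77 genes, 19 have a single transcript there. Of 57 genes with several transcripts and at least 5 TPM in each library, 51 (89.5%) had the same leading transcript in both, against 65.7% of such protein-coding genes. These shares were not matched for level. The protein-coding genes had a median of 64.7 TPM with the same leading transcript and 37.0 with different ones, and the members 120 and 101. The 6 members with different leading transcripts were Mrps21, Mrps5, Mrpl27, Mrpl39, Mrpl23 and Mrpl1. In Mrps21, a transcript of 488 bases led in replicate 1 with 53.2% of the TPM, and one of 405 bases led in replicate 2 with 58.5%. Both are annotated as coding, and they held 36.9% and 46.3% in the library they did not lead. In Mrps5, a retained-intron transcript held 95.9% in replicate 1 and 20.8% in replicate 2, where a coding transcript that had 0% in replicate 1 led with 35.3%. Mrps5 had 294 counts in replicate 1. In Mrpl1, the lowest of the members, the leading transcript went from one of 3431 bases with 93.3% in replicate 1 to one of 1550 bases with 100% in replicate 2. These shares of Mrpl1 rest on 633 and 179 counts. In Mrpl39 the coding transcript went from 100% to 48.8%, and in Mrpl27 the leading coding transcript of replicate 2, at 85.4%, had held 49.6% in replicate 1.

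In 11 of the 57 genes (19.3% by TPM), the leading transcript was one that release M21 does not annotate as coding in both libraries, against 9.32% of such protein-coding genes. These were Mrps14, Mrps11, Mrpl13 and Mrpl3, led by transcripts marked for nonsense-mediated decay, Mrps24, Mrps25, Mrps26 and Mrpl51, led by retained-intron transcripts, and Mrpl15, Mrpl19 and Mrpl47, led by processed transcripts. In Mrps14 the decay transcript held 93.6% and 92.0% of the TPM, and in Mrps26 the retained-intron transcript held 95.2% and 93.7%. Coding transcripts of Mrpl51 held 1.24% and 2.26%. TPM weights short transcripts more, and by expected count the number fell from 11 to 5 of the 57, namely Mrpl15, Mrpl51, Mrps14, Mrps24 and Mrps26. The share of protein-coding genes by expected count was not computed, so the 5 have no background, and the excess is given on TPM alone. Mrpl32 is not among the 57, but its single transcript is also annotated for nonsense-mediated decay in release M21, and it was at 74.0 and 78.0 TPM. The deposited tables were made with release M4, and the classes are those of M21.

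**Figure D5:**
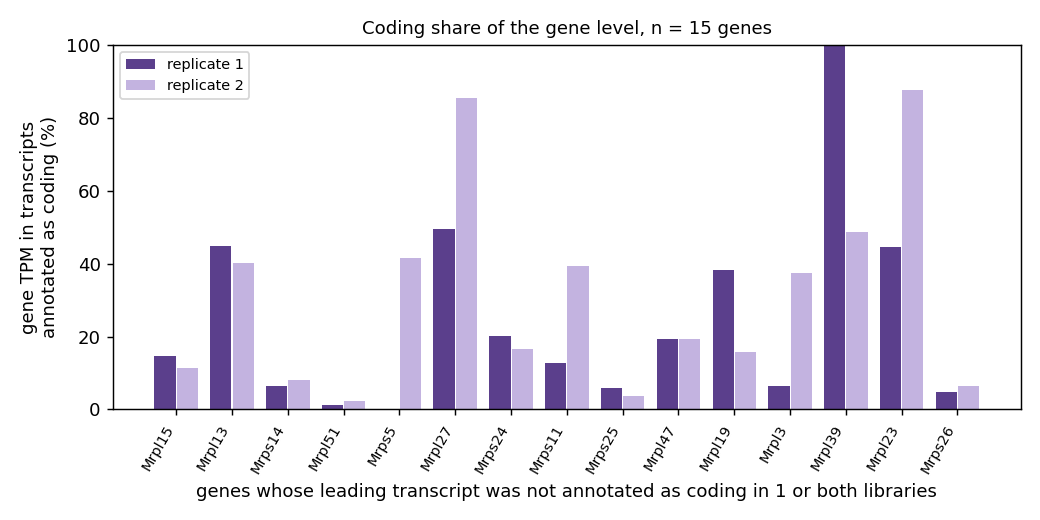
Percent of the gene's TPM assigned to transcripts annotated as coding (y axis) in replicate 1 (dark) and replicate 2 (light), for the 15 genes whose leading transcript was not annotated as coding in at least 1 library. In Mrps14, Mrpl51, Mrps25 and Mrps26 coding transcripts held under 8% in both libraries, while Mrps5, Mrpl27, Mrpl39 and Mrpl23 differed widely between them.

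Some levels depend on how reads were divided between overlapping or near-identical genes. The use of strand in counting is not given in the sources used here. In 32 of 77 genes (41.6%) an exon overlaps an exon of another gene, against 38.1% of protein-coding genes at 10 TPM or more on average. Transcript windows of 100 bases that also occur in another gene made up at least 25% of the windows of 5 genes. These were Mrpl53 (75.6%, with Gm42688), Mrps34 (67.0%, with Nme3 and, on the other strand, Mapk8ip3), Mrps25 (66.4%, with Nr2c2 on the other strand), Mrpl19 (35.2%, with Gcfc2 on the other strand) and Mrpl43 (27%, with the mitochondrial helicase gene Twnk on the other strand). Mrpl53, at 59.8 and 238 TPM, is therefore uncertain, as are the other 4. Mrpl23 had the widest deposited interval relative to its level, from 21.2 to 67.6 TPM in replicate 1 around 37.3, and from 7.38 to 24.0 in replicate 2 around 9.09, and 8.97% of its windows were shared with other genes, among them the processed pseudogene Mrpl23-ps1. The next widest intervals, for Mrpl9 and Mrps22 in replicate 2, were 0.35 to 0.85 and 0.87 to 1.75 TPM and belong to values near 1.

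Mitochondrial ribosome proteins whose symbols lie outside the Mrp series were detected in both libraries for 5 of 5 genes. The share was 30.4% over protein-coding genes. Chchd1 was at 225 and 305 TPM and Gadd45gip1 at 45.8 and 32.2. Dap3, which encodes a GTP-binding protein of the small subunit, was at 34.05 and 266 TPM, Aurkaip1 at 234 and 59.6, and the pentatricopeptide repeat gene Ptcd3 at 2.64 and 81.7. These last 3 of the 5 were 2-fold apart, in different directions, where 51.2% of protein-coding genes averaging 10 TPM or more were.

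Factors that build and run the mitochondrial ribosome had lower medians and were detected in both libraries in smaller shares than its proteins, differences that were not tested. Of 26 assembly factors, which modify the ribosomal RNA or help subunits form, 16 were detected in both libraries, where 30.4% of protein-coding genes were, and the median was 31.5 TPM. Of the 20 averaging 10 TPM or more, 13 were 2-fold apart, 7 higher in replicate 2 and 6 in replicate 1. The background was 51.2% of protein-coding genes at 10 TPM or more and 56% of those from 20 to 50 TPM, for these and for the translation factors. The highest were Fastkd2 at 56.5 and 66.3 TPM, Mtg1 at 38.04 and 68.5, and Gtpbp10 at 54.1 and 45.6. Of 15 translation factors and messenger RNA binding proteins, 10 were detected in both, with a median of 37.1 TPM, and 8 of 12 averaging 10 TPM or more were 2-fold apart, 4 in each direction. The messenger RNA stabiliser Slirp led at 313 and 331 TPM, followed by the elongation factor gene Tufm at 142 and 118 and its exchange factor Tsfm at 61.2 and 174. Of 6 genes for mitochondrial transcription, 3 were detected in both, namely Tfam at 102 and 142 TPM, the polymerase gene Polrmt at 88.9 and 10.8, and Tfb2m at 16.9 and 1.68.

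The mitochondrial products that these proteins bind or translate were closer between libraries. The ribosomal RNAs mt-Rnr2 and mt-Rnr1 were at 2220 and 2434 TPM and at 544 and 533 TPM. None of the 13 mitochondrial messenger RNAs was 2-fold apart, and they summed to 25805 and 29039 TPM. The widest apart were mt-Co2 at 1420 and 2667 TPM, mt-Nd6 at 282 and 509, and mt-Nd5 at 227 and 393. The background was 51.2% of protein-coding genes averaging 10 TPM or more and 21.9% of those from 100 to 1000 TPM. It was not computed above 1000 TPM. For scale, 76 cytosolic ribosomal protein genes had a median of 906 TPM and 3 of 76 were 2-fold apart (3.95%), and 76 nuclear genes of the respiratory chain and ATP synthase had a median of 361 TPM with 12 of 75 apart (16%). Mitochondrial ribosomal protein genes, at a median of 110 TPM and 38.2%, were lower and further apart. These differences between sets were not tested and were not matched for level.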

How the data were processed

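RNA of mouse forebrain at embryonic day 11.5 was measured in 2 libraries, each treated as 1 bulk sample. Per the file headers, the authors deposited expected counts, TPM and FPKM per gene and transcript, as point estimates and posterior means. The deposited transcript tables also give the percent of gene TPM per transcript. The posterior SDs and interval bounds that the authors deposited were read as a score, and the level of the intervals is not stated. The text deposited with the tables names mm10 and annotation M4. Neither aligner nor quantifier is given in the sources used here. FPKM was not used. TPM covers all rows, and spike-ins held 8.44% and 6.56% of it.

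Symbols, classes and coordinates came from GENCODE M21 by gene ID, which matched 42462 of 43346 gene rows, and coordinates are 1-based. The members and gene lists were chosen with earlier results of these data known. A difference is replicate 2 minus replicate 1 of log2(TPM + 1), a scale that understates the change of low genes, and a gene averaging 10 TPM or more counted as 2-fold apart from a difference of 1 in either direction. CPM used the summed gene counts. Whether the libraries differ beyond handling cannot be told from 2 samples. No p-value was computed. Shared sequence was counted as identical windows of 100 bases in M21 transcripts, because effective lengths were 99 bases below lengths. Scripts used pandas 2.3.3 and scipy 1.17.1, and edgeR 4.0.16 and DESeq2 1.42.0 served only for scaling alternatives, on counts rounded to whole numbers. Protein sequences were not analysed here, and 1 erythroid marker is not reported here.

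Genes were named by a rule: per subunit the 6 highest and 3 lowest by mean TPM, the 5 largest differences in each direction, members under 1% of counts in one library, 10 fixed members, the 5 highest whose leading transcript differs, the 3 widest intervals, and the 3 highest of each list. Others named were chosen after their values were seen.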

Additional observations from a re-analysis of the deposited data

How the results depend on the processing

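Of 47 alternative values over 10 results, 36 stayed within the limits set for them and 11 moved beyond them. Some of the 36 could not move. The limit for a summed level was the SD of the libraries, and leaving out one library changes a sum by less than that. All 77 genes averaged at least 1 TPM, so dropping the TPM filter could not alter r. For the count of genes 2-fold apart, no filter repeated the value at a mean TPM of at least 1. A change of direction was not scored. The count of genes 2-fold apart, 29, was 30 with a pseudocount of 0.1, 27 with a pseudocount of 5, 27 by TMM-scaled CPM, 27 by DESeq2 size factors and 25 without the 5 genes that share many windows, the last an alternative chosen after seeing the data. TMM or DESeq2 scaling gave 12 genes higher in replicate 2 and 15 in replicate 1, against 15 and 14. The number detected in both was 72 to 75 under other limits, while replicate 2 taken by itself held 75 and replicate 1 held 76. With a limit of 5% in place of 1%, 6 genes were read in one library alone. Posterior mean TPM gave 6347 for the summed Mrpl level. Rescaling TPM to gene rows, which removes spike-ins, raised the sums to 7004 and 3591 TPM and the medians to 114 and 119 TPM. Leaving out one replicate gave Mrpl medians of 90.005 to 99.6 TPM and Mrps medians of 102 to 103 TPM. The 11 genes with a leading transcript not annotated as coding became 5 by expected count, and 6 of 36 among genes at 50 TPM or more in each library, both chosen after seeing the data. Pearson r across members ranged from 0.36 to 0.49. No paired analysis was possible because the study has one group. Results that compare the libraries have no value with one of them left out. The genes had a median of 1936 and 2026 counts per library, but with an input of 1 cell-equivalent and no molecular identifiers the number of molecules behind them is unknown.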
